A study of Mus musculus with 4 samples.

Results

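Cytosolic ribosomes are built from ribosomal RNA and a set of small, mostly basic proteins, and each protein is encoded by its own gene. The proteins of the large subunit (Rpl and Rplp genes) surround the site where peptide bonds are made and the tunnel through which the new chain leaves, and those of the small subunit (Rps genes) line the site where the messenger RNA is decoded. Hepatocytes, which export plasma proteins, are rich in ribosomes, and many of these transcripts carry a pyrimidine tract at their start through which the mTOR kinase adjusts their translation. The results below follow 37 such genes, 22 of the large and 15 of the small subunit, of 32665 genes or accessions on the array. They were chosen by symbol, as the probes whose RefSeq accession belongs to a listed gene: 48 probes in all, with 10 genes measured by more than 1 probe.

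The livers came from male C57Bl/6 mice that were 3 months old, and every mouse carried a mutant Wrn protein, the RecQ helicase lost in Werner syndrome. Treated mice had drunk water with 0.4% vitamin C since weaning, and the controls were Wrn mutant mice without treatment. Each of 4 arrays held RNA of treated liver in the Cy3 dye and of untreated liver in the Cy5 dye, and these pairs are called replicates 1 to 4. The labels do not name the mutation, no mice with a normal Wrn gene entered the comparison, and mice make vitamin C themselves. Each value is the log2 of the treated over the untreated signal, so 0 means equal signal, and means are given with the SD over 4 arrays. This direction rests on the dye labels. The log2 table that the authors deposited runs the other way, with correlations from -0.98 to -0.95 to these ratios across 41174 probes. The sample titles name the treated liver first and the untreated liver second. If the deposited table is read in the order of the titles, as treated over untreated, it reverses every direction given here. The labels and titles do not settle which reading holds. Were the dyes the reverse of the labels, every direction would turn.

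With 0 of 4 arrays dye-swapped, the dye and the treatment cannot be told apart for any probe. All 4 arrays lay on 1 slide. Median spot intensities were 380 to 530 in Cy3 and 813 to 962 in Cy5, and negative controls were at 62 to 67 and 66 to 80. Where a probe was printed repeatedly, the log2 ratio had an SD of 0.073 to 0.082 between its spots. Across all genes, replicate 2 stood apart: its ratios correlated with those of replicates 1, 3 and 4 at r = 0.020, -0.15 and -0.18, whereas the other pairs of arrays were at 0.60 to 0.78 (across 31077 genes, which are not independent replicates). Hepatocyte markers were among the brightest spots, with log2 intensities of 15.6 to 18 over 8 genes, and their median ratios were -0.57, -0.28, -0.52 and -0.35 on replicates 1 to 4. Of their means, 7 were below 0 and 1 above, that of Ttr (0.11), the dimmest of them. Most other genes at such brightness were low as well, and relative to the running median of genes of like intensity the markers had a median of -0.064. The part of these markers in the results below was not tested.

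Many ribosomal protein genes start transcription within a stretch of pyrimidines, and the sequences around the annotated starts of a few members are shown for that reason. RefSeq promoter windows of the mouse build GRCm38.p6, from 250 bases before to 50 bases after a start, were at hand for 29 of the 37 genes; Rpl3, Rpl7, Rpl8, Rpl30, Rpl32, Rps14, Rps20 and Rplp1 had none in this table. Printed here are Rps19, the gene with the highest mean ratio, at the first of its 3 annotated starts, and the 3 genes with the highest and the 3 with the lowest mean ratio among those with 1 annotated start. Each runs 5′ to 3′ on the gene's strand for 60 bases, with the start as base 31, and capitals mark the longest unbroken run of C and T.
Rps19 (chr7:24884562-24884621, + strand): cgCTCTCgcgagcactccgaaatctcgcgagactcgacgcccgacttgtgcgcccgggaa
Rps27 (chr3:90213619-90213678, - strand): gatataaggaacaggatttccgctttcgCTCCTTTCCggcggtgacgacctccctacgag
Rps15 (chr10:80292401-80292460, + strand): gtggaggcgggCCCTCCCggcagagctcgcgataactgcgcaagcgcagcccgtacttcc
Rpl18 (chr7:45718041-45718100, + strand): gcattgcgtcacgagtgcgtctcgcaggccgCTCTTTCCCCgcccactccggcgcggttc
Rps16 (chr7:28350659-28350718, + strand): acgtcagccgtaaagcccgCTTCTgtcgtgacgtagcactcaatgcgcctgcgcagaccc
Rplp0 (chr5:115559437-115559496, + strand): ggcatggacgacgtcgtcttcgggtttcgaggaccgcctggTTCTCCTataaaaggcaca
Rps6 (chr4:86857338-86857397, - strand): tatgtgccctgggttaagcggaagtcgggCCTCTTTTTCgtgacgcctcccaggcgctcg

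In Rps27, Rpl18 and Rps6 a run of 9 or 10 pyrimidines lies at or just beside the annotated start, and these 3 genes include means on both sides of 0 (Rps27: 0.14, Rpl18: 0.13, Rps6: -0.19). A run of at least 8 pyrimidines within 20 bases on either side of a start was found on the gene's strand for 12 of 29 members (41.4%), against 18.4% of 27025 genes in the table. The letters CTTTCC, on either strand of the 300-base window, were found for 16 members (55.2%, against 29.3% of genes). CCGGAAG, the core recognised by GABP and other ETS factors, was found for 9 members (31%, against 9.9%), and TATAAA for 3 (10.3%, against 15.7%). The 12 members with a pyrimidine run had a median ratio of 0.088 and the other 17 had -0.013. The 9 members with CCGGAAG had a median of -0.052 and the others 0.071. These letter matches are descriptions of the windows, and annotated starts can differ from the starts used in liver.

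No ribosomal protein gene passed the test over all genes. Adjusted p-values (limma, Benjamini-Hochberg over 31077 genes) were under 0.05 for 0 of 37 members, and for 0% of all genes tested; the smallest among the members was 0.144. Mean ratios of the members ran from -0.21 (Rplp1) to 0.45 (Rps19), 21 above 0 and 16 below, with a median of 0.035 against -0.015 over all genes. At an unadjusted p under 0.05 there were 2 members higher (Rps19 and Rpl10a) and 4 lower (Rps2, Rps6, Rpl23 and Rplp1), which is 5.41% and 10.8% of the members, below the 11.1% and 16.6% of all genes. The same sign on all 4 arrays was seen for 3 members higher (Rps19, Rpl3 and Rpl18) and 3 lower (Rps6, Rps23 and Rpl23), or 8.11% each, against 14.8% and 16.1% of all genes. Each of these shares is below the background of all genes.

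**Figure D1:**
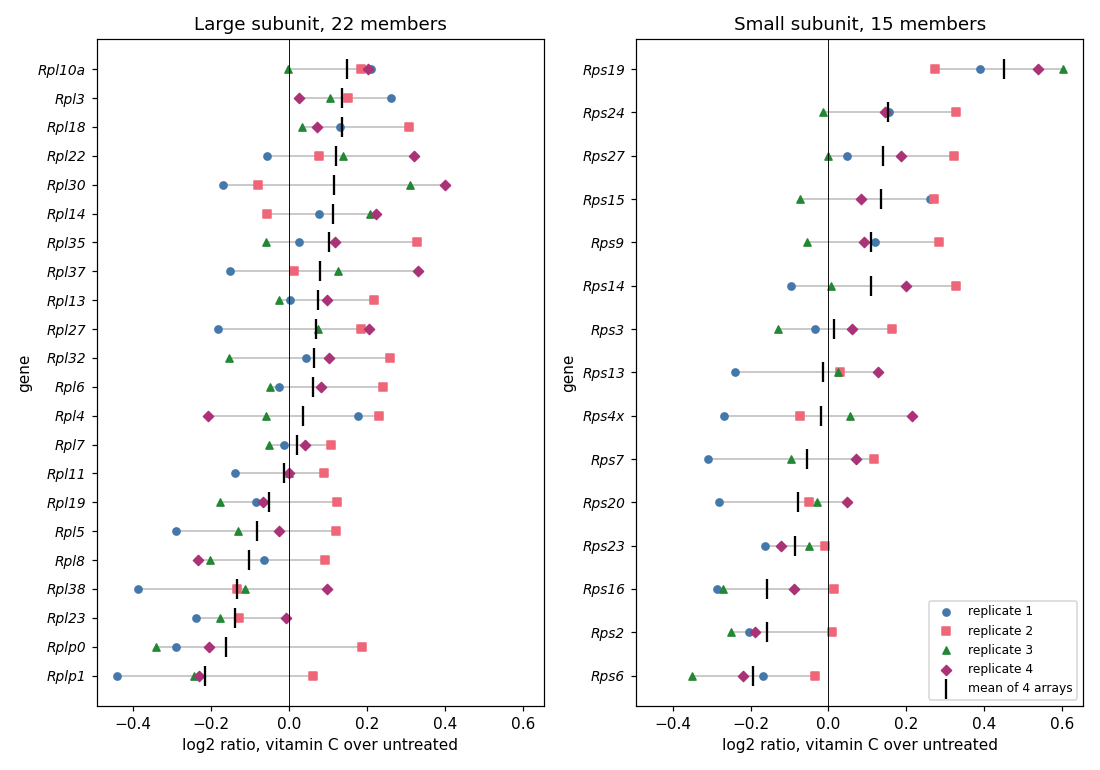
Log2 ratio of vitamin C over untreated (horizontal axis) of each of the 37 ribosomal protein genes (vertical axis), in separate panels for the large and small subunit; symbols are the 4 replicates, grey lines their range and black bars their mean. The mean of Rps19 (0.45) lies to the right of all other means, although on replicate 2 Rps24 was higher (0.33 against 0.27), and for most genes the 4 symbols fall on both sides of 0.

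The members shifted from array to array as a group. Their medians were -0.084, 0.12, -0.050 and 0.082 on replicates 1 to 4, and 13, 29, 12 and 26 of the 37 lay above 0. Replicates 2 and 4 were thus on the higher side and replicates 1 and 3 on the lower. The SD between members within an array was 0.14 to 0.20, against 0.17 to 0.31 between all genes. Macrophage marker genes, 6 of 8 measured, had medians of -0.33, 0.17, 0.048 and 0.40 on the same arrays. They were also lowest on replicate 1, but above 0 on replicate 3 and highest on replicate 4. Hepatocyte markers too were lower on replicates 1 and 3 than on 2 and 4, whereas endothelial and B cell markers were lowest on replicate 2 (-0.26 and -0.084). The summed normalised signal of the macrophage markers was 29303 to 51746 in treated and 29603 to 40841 in untreated livers, and none was at 0. The part of these markers in the array medians was not tested. In whole liver RNA, a change in the share of a cell type and a change of RNA within cells cannot be told apart.

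Across members, the arrays fell into 2 groups of like pattern. Ratios of replicates 3 and 4 correlated at r = 0.86 and those of replicates 1 and 2 at r = 0.64, while the remaining pairs were at 0.11 to 0.48 (37 genes, as a description; genes on an array share its dyes and normalization). Of 3 genes picked out after their values had been seen, Rpl30, a small protein of the large subunit, was at -0.17 and -0.080 on replicates 1 and 2 and at 0.31 and 0.40 on replicates 3 and 4. Rps4x, the X-linked small subunit gene, had -0.27, -0.073, 0.054 and 0.21 on replicates 1 to 4, with the same order. Rpl4, whose protein reaches into the exit tunnel, went the other way, with 0.18, 0.23, -0.059 and -0.21. For all 3 genes, the groups of arrays lay on opposite sides of 0 and the mean of 4 arrays was small beside the spread (Rpl30: 0.12 ± 0.28, Rps4x: -0.018 ± 0.20, Rpl4: 0.035 ± 0.21; SD, n = 4).

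Rps19 had the highest ratio of the members. Its protein sits in the head of the small subunit, is needed to mature the ribosomal RNA of that subunit, and is the one most often mutated in the inherited anaemia named after Diamond and Blackfan. Background-subtracted signals before normalization were 4800, 4185, 3561 and 5696 in the Cy3 channel (vitamin C) and 5741, 7251, 6227 and 6804 in the Cy5 channel (untreated) on replicates 1 to 4; the Cy5 channel was brighter over the whole array, so the channels compare only after normalization. The log2 ratios were then 0.39, 0.27, 0.60 and 0.54, all above 0. The mean was 0.45 ± 0.15 (SD, n = 4), a fold of 1.37, which is higher than in 99.3% of all genes, with an unadjusted p of 0.000715 and an adjusted p of 0.144 (limma). Without replicate 2 the mean was 0.51 and the adjusted p 0.00979 (limma), in a fit where 28.2% of all genes passed. Without replicate 1, 3 or 4 the adjusted p was 0.388, 0.471 and 0.377 (limma). With the array as a random block in a separate-channel fit the adjusted p was 0.0228 (limma), where 3.16% of genes passed. With the channels fitted as independent groups it was 0.237 (limma). The array carries 1 probe for Rps19, at a mean log2 intensity of 12.4, whereas 33 of the other 36 members were at 14 or more. All 18 alternative settings kept the ratio above 0, from 0.32 to 0.51. Those that changed only filters, probe choice, variance model or the separate-channel fit left it at 0.45 and could not turn its sign. The deposited log2 table, also among the 18, was first turned in sign to follow the dye labels. That setting therefore says nothing about which direction is right.

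Among the other members with means above 0, none passed over all genes. Rps24, which like Rps19 is a small subunit gene mutated in the same anaemia, had ratios of 0.16, 0.33, -0.015 and 0.15 on replicates 1 to 4. It was close to 0 on replicate 3 and above it on the others, with a mean of 0.15 ± 0.14 (SD, n = 4; adjusted p = 0.195, limma). Rpl10a, at the mobile L1 stalk of the large subunit, had 0.21, 0.18, -0.0034 and 0.20, a mean of 0.15 ± 0.10 (adjusted p = 0.169, limma). Again replicate 3 alone was at 0. Rps27, a small zinc-binding protein, had 0.047, 0.32, -0.0010 and 0.19, a mean of 0.14 ± 0.15. Without loess normalization these 3 genes had means of -0.036, -0.012 and -0.064. Rpl3, which lies near the catalytic centre, was above 0 on all arrays at 0.14 ± 0.099, and so was Rpl18 at 0.13 ± 0.12; both were slightly below 0 without loess, at -0.028 and -0.019.

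The acidic stalk of the large subunit, which recruits the elongation factors, is represented by Rplp0 and Rplp1. Rplp1 had the lowest mean of all members and the brightest spots (log2 intensity 17.6): its ratios were -0.44, 0.060, -0.25 and -0.23, a mean of -0.21 ± 0.21 (SD, n = 4; adjusted p = 0.179, limma). Rplp0, the base of the stalk, had -0.29, 0.19, -0.34 and -0.21, a mean of -0.16 ± 0.24 (adjusted p = 0.301, limma). Both genes were below 0 on replicates 1, 3 and 4 and above it on replicate 2. Without replicate 2 their means were -0.31 and -0.28 with adjusted p-values of 0.0231 and 0.0183 (limma), in the fit where 28.2% of all genes passed. With any other array left out, neither gene passed. At this brightness other genes were low as well, and relative to the running median of genes of like intensity, Rplp1 stood at 0.16 and the brightest probe of Rplp0 at 0.088. The second probe of Rplp0, at a log2 intensity of 15.8, was at -0.22. All genes between 15.5 and 16 had a median of 0.033, so on that probe Rplp0 was low beside genes of like intensity.

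Rpl5 and Rpl11 join 5S ribosomal RNA before it enters the large subunit, and when ribosome assembly fails they bind Mdm2, the ubiquitin ligase that restrains p53. Rpl5 had ratios of -0.29, 0.12, -0.13 and -0.025, a mean of -0.082 ± 0.17 (SD, n = 4; adjusted p = 0.491, limma). Rpl11 had -0.14, 0.089, 0.00037 and 0.000080, a mean of -0.013 ± 0.094 (adjusted p = 0.894, limma). Neither stood clear of 0, and both were lowest on replicate 1 and highest on replicate 2. Rpl23, which also binds Mdm2, was below 0 on all arrays at -0.24, -0.13, -0.18 and -0.0083, a mean of -0.14 ± 0.098 (adjusted p = 0.178, limma). Its second probe was at 0.12, so the direction rests on which probe is read.

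Rps6, the small subunit protein phosphorylated by S6 kinase downstream of mTOR, was the lowest small subunit member. Its ratios were -0.17, -0.033, -0.35 and -0.22, a mean of -0.19 ± 0.13 and a fold of 0.875 (SD, n = 4; adjusted p = 0.152, limma). It was below 0 on every array and in all 18 alternative settings (-0.39 to -0.094). As with Rps19, settings that changed only filters, probe choice, variance model or the separate-channel fit could not turn its sign. The deposited table was again used with its sign turned to follow the dye labels. Unlike the stalk genes on their brightest probes, Rps6 stayed low, at -0.21, relative to that running median. Without replicate 2 the mean was -0.25 with an adjusted p of 0.0313 (limma), under the same fit that called 28.2% of genes. Rps6 did not pass with any other array left out. Rps2, near the messenger RNA entry, had -0.20, 0.0083, -0.25 and -0.19, a mean of -0.16 ± 0.11 (SD, n = 4; adjusted p = 0.167, limma). Rps16, near the decoding site, had -0.29, 0.013, -0.27 and -0.088, a mean of -0.16 ± 0.15 (adjusted p = 0.193, limma). Both were just above 0 on replicate 2 and below it on the others, and relative to the running median they were at 0.096 and 0.073. Rps2 without replicate 2 was at -0.21 (adjusted p = 0.0262, limma). With any other array left out it did not pass. Its second probe was above the first on each array, at 0.040, 0.25, -0.23 and -0.11 on replicates 1 to 4, a mean of -0.014. Both probes were thus below 0 on replicates 3 and 4 only, and the size of the lower ratio depends on the probe.

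Large and small subunit genes did not separate. Medians of the large subunit were -0.061, 0.12, -0.051 and 0.076 on replicates 1 to 4, and those of the small subunit -0.16, 0.12, -0.049 and 0.083. The difference, large minus small, was 0.10 on replicate 1 and 0.0034, -0.0021 and -0.0064 on replicates 2 to 4. Over the gene means it was 0.076 (0.062 against -0.014), and 0.019 without replicate 1. Among the 21 members at a log2 intensity of 16 or more, 12 large and 9 small, it was -0.012; among the 12 members between 14 and 16 it was 0.055. Relative to the running median it was 0.0046, and with Agilent's processed signals it turned to -0.055. An exact sign-flip test on 4 arrays could not reach a p of 0.05, so the difference was given as a description.

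**Figure D2:**
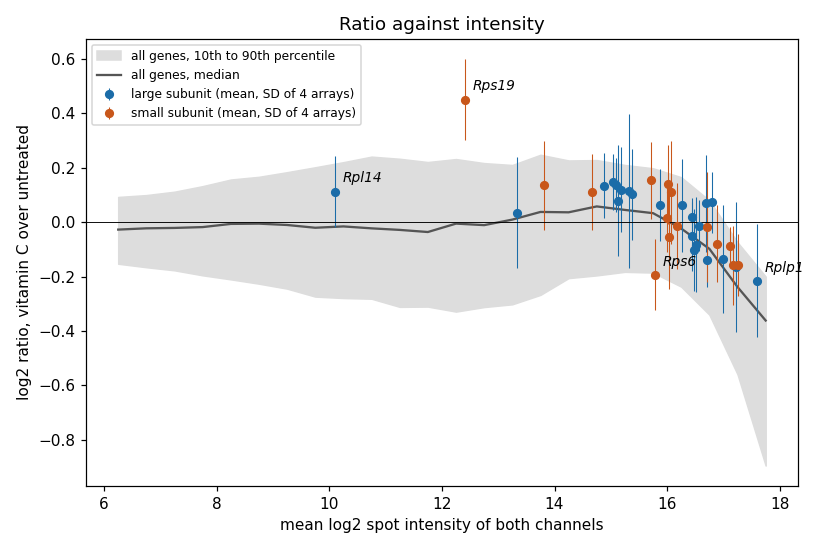
Mean log2 ratio of vitamin C over untreated (vertical axis) against mean log2 spot intensity of both channels (horizontal axis); points are the members with the SD of 4 arrays as bars, the grey band and line are the 10th to 90th percentile and the median of all genes in steps of intensity. The members follow the bend of the line down at the bright end but mostly lie above the line there. Rps19 is far above the line and Rps6 below it.

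Brighter members had lower ratios. The brightness of a spot depends on the probe as well as on the transcript, so it is used here only as a property of the measurement. Across the 37 members, mean ratio and mean log2 intensity had a Spearman correlation of -0.78, and of -0.77, -0.42, -0.51 and -0.48 on replicates 1 to 4. The correlation of the means was -0.32 with Agilent's processed signals. It was -0.51 with the 10 members that had more than 1 probe read from the second-brightest. Both were taken against the intensities of the brightest probes, so the latter is not a correlation of those second probes with their own intensity. These are descriptions over genes that share arrays and normalization. The 21 brightest members (log2 intensity of 16 or more) had a median of -0.054, where all 445 genes of that class had -0.15. Within that class the median of all genes fell steeply, from -0.023 in the step from 16 to -0.36 in the step from 17.5. The class is therefore not of like brightness throughout. The 12 members between 14 and 16 had a median of 0.11, where 1189 genes had 0.044. The members' median of means thus lay above that of all genes in both classes, but not on every array. On replicate 1 the brightest members were at -0.20 and the genes of their class at -0.14. In the class from 14 to 16, members were below the genes on replicate 1 (-0.00022 against 0.035) and on replicate 3 (-0.0092 against 0.048).

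At a log2 intensity of 14 or more, the members were closer to each other than all genes of their intensity class. The SD between the means of the 21 brightest members was 0.099, against 0.31 for all genes of the class, and it was 0.095 against 0.19 in the class from 14 to 16. The SD of 0.31 also holds the fall of all genes across the brightest class. In the step from 16 alone, the 10th to 90th percentile of all genes ran from -0.24 to 0.17. For the 3 members between 12 and 14, Rps19 among them, the SD was 0.217 against 0.223. With the running median taken off, 32 of 37 members had a mean above 0 with a median of 0.076; the array medians were -0.0070, 0.17, -0.00015 and 0.11, so this came from replicates 2 and 4. The Spearman correlation with intensity was then -0.081. Rpl14, the dimmest member with a log2 intensity of 10.1, had 0.076, -0.058, 0.21 and 0.22, a mean of 0.11 ± 0.13 (SD, n = 4; adjusted p = 0.282, limma).

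Probes of the same gene did not always give the same answer. Of 10 members with more than 1 probe, 4 had opposite signs on their brightest and second-brightest probe: Rpl19, Rpl23, Rpl37 and Rpl6. Rpl19 had -0.052 on the brightest and 0.24 on the other, and the second was higher on 4 of 4 arrays. Rpl6 had 0.062 and -0.26, and the second was lower on 4 of 4 arrays. The second probe of Rps3, a small subunit protein at the entry of the messenger RNA, was at 0.29 ± 0.14 (SD, n = 4), against 0.015 ± 0.13 on the brightest. In the mean, Rplp0 kept its sign, at -0.16 and -0.22, and so did Rpl22, at 0.12 and 0.093. On replicates 1 to 4, the brightest probe of Rpl22 had -0.056, 0.077, 0.14 and 0.32, and the other 0.14, -0.091, 0.31 and 0.0083. The gaps of Rpl19, Rpl6 and Rps3, 0.28 to 0.32 in size, exceed the SD of repeat spots (0.073 to 0.082). Those of Rplp0, Rpl22 and Rpl7, at 0.056 or less between these means, do not. That SD is between spots on an array, whereas the gaps are between means of 4 arrays. Rpl7 has a still dimmer probe, at 0.43, 0.42, 0.19 and 0.18 on replicates 1 to 4. The mean of that probe was 0.30, against 0.020 on the brightest, so the probes of Rpl7 did not all agree. Ribosomal protein genes have many processed pseudogenes of nearly the same sequence in the mouse genome, so the signal of a probe can include them, and single ratios are uncertain to that extent.

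**Figure D3:**
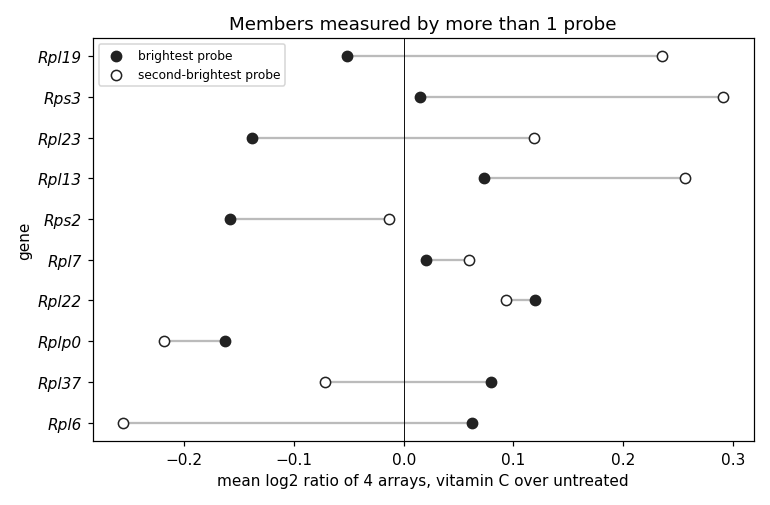
Mean log2 ratio of 4 arrays (horizontal axis) for the 10 members with more than 1 probe (vertical axis), with the brightest probe as a filled and the second-brightest as an open circle. The circles of Rpl19, Rpl23, Rpl37 and Rpl6 lie on opposite sides of 0.

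The remaining cytosolic ribosomal protein genes, 42 that were not members, had a like median and a different balance of single genes. Their median was 0.040, with array medians of -0.052, 0.093, -0.021 and 0.11, again lower on replicates 1 and 3 and higher on 2 and 4. At an unadjusted p under 0.05, 7 were higher and 3 lower (16.7% and 7.14%, against 5.41% and 10.8% of the members and 11.1% and 16.6% of all genes), and 0 passed over all genes. The same sign on all 4 arrays was seen for 10 higher and 3 lower (23.8% and 7.14%), against 14.8% and 16.1% of all genes. Rps21, of the small subunit, was at 0.30, 0.51, 0.27 and 0.40, a mean of 0.37 ± 0.11 (SD, n = 4; adjusted p = 0.144, limma). Rpl23a, a protein at the tunnel exit, was at 0.39 ± 0.14 (adjusted p = 0.144, limma) and above 0 on all arrays. Of the paralogs of ribosomal protein genes, 6 of 8 were measured: Rpl22l1, whose product can take the place of Rpl22, was at 0.34 ± 0.23, Rpl7l1 at 0.13 ± 0.028, and the list's median was 0.018.

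Genes of the mitochondrial ribosome, which translates only messages of the mitochondrial genome, had a median above 0 on each array. Of 78 genes, 61 had a mean above 0, the median was 0.095, and array medians were 0.11, 0.11, 0.075 and 0.064. At an unadjusted p under 0.05, 24 were higher and 0 lower (30.8% and 0%), against 11.1% and 16.6% of all genes, and 0 passed over all genes. Mrpl55 was at 0.33 ± 0.095 and Mrpl11 at 0.29 ± 0.073 (SD, n = 4; adjusted p = 0.144 each, limma). Their median log2 intensity was 13.2, against 16.1 for the cytosolic members, and without loess the median was -0.041. The gap to the members, 0.095 against 0.035, was smaller with Agilent's processed signals (0.093 against 0.091), relative to the running median (0.081 against 0.076) and without replicate 1 (0.073 against 0.065). It was also smaller without replicate 3 (0.089 against 0.063). The gap was larger without loess (-0.041 against -0.16), without replicate 2 (0.089 against -0.0028) and without replicate 4 (0.10 against 0.014). The difference between the mitochondrial and cytosolic genes was not tested.

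**Figure D4:**
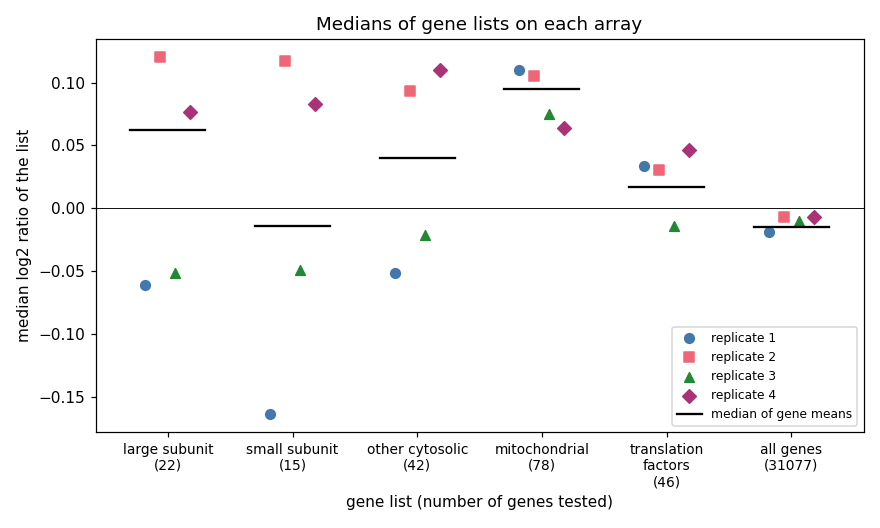
Median log2 ratio of vitamin C over untreated (vertical axis) of each gene list (horizontal axis, with the number of genes tested) on replicates 1 to 4 (symbols), with the median of the gene means as a black line. Both subunits and the other cytosolic ribosomal proteins are below 0 on replicates 1 and 3 and above it on replicates 2 and 4, and the mitochondrial list is above 0 on all 4.

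Genes that make, regulate or use ribosomes had medians near 0. Of 56 genes of ribosome biogenesis and RNA polymerase I, 11 were higher and 6 lower at an unadjusted p under 0.05 (19.6% and 10.7%, against 11.1% and 16.6% of all genes), with a median of 0.045. Ubtf, which sets up ribosomal DNA for transcription, was at 0.37 ± 0.047 and Nolc1, a nucleolar phosphoprotein, at -0.40 ± 0.10 (SD, n = 4; adjusted p = 0.144 each, limma). Of 46 translation factors, 5 were higher and 8 lower (10.9% and 17.4%) with a median of 0.017. Eif4a2, a helicase of initiation, was at 0.25 ± 0.086 and Eef1a1, which brings transfer RNA to the ribosome, at -0.19 ± 0.042. Eef1a1 had a log2 intensity of 17.2, and all genes in the step from 17 had a median of -0.24. Beside genes of like intensity it was therefore not low. Of 29 genes of the mTOR pathway, 8 were higher and 4 lower (27.6% and 13.8%) with a median of 0.027. Lamtor1, which anchors the pathway at the lysosome, was at 0.28 ± 0.033 and Eif4ebp1, the inhibitor of cap binding that mTOR phosphorylates, at 0.32 ± 0.12 (adjusted p = 0.144 each, limma). In each of these lists 0 genes passed over all genes, and without loess each median was below 0.

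**Figure D5:**
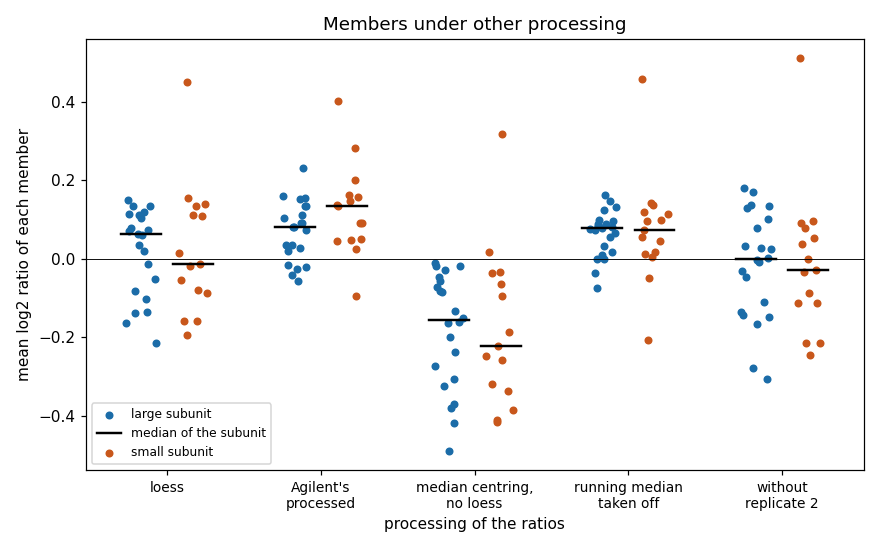
Mean log2 ratio of each member (vertical axis; large subunit blue, small subunit orange, black lines the medians) with loess normalization, with Agilent's processed signals, with arrays only centred on their median, relative to the running median of genes of like intensity, and with loess but without replicate 2 (horizontal axis). The cloud moves from a median of 0.035 down to -0.16 without loess and up to 0.091 with processed signals, while Rps19 stays the highest point.

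The median of the members moved with the handling of brightness. The median of the members was 0.035 with loess, 0.091 with Agilent's processed signals and -0.16 with arrays only centred on their median. In the last setting 35 of 37 means were below 0, and 16 members passed over all genes (limma), 15 lower and Rps19 higher, where 31% of all genes passed. Only Rps19 and Rps15 among the higher and Rpl5, Rpl8 and Rps6 among the lower members kept their sign in all 18 alternative settings. Filters, variance models and separate-channel fits left the means of members unchanged, so those settings could not turn a sign. The deposited log2 table was turned in sign to follow the dye labels before its signs were compared. Rps15 was between 0.017 and 0.21, Rpl5 between -0.31 and -0.00087 and Rpl8 between -0.32 and -0.021, so for these 3 the sign is held by values close to 0 in some settings.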

How the data were processed

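Liver RNA of 4 treated and 4 untreated Wrn mutant mice was hybridised in pairs to 4 arrays (Agilent design 014868). The authors deposited scanner files with the intensity and local background of each spot in both channels, made, per the file headers, by version 10.5.1.1 of Agilent's Feature Extraction, and a table of log2 ratios; the submitters' processing notes name limma, and how that table was made is otherwise not given in the sources used here. From the median signals, ratios were computed with limma 3.58.1 in R 4.3.3: normexp (offset 50), loess within each array with control and outlier spots at weight 0, no scaling between arrays, outlier spots left out, repeat spots averaged. Accessions matched 1 symbol of the RefSeq table of GRCm38.p6 for 25097 of 41174 probes (61.0%). A gene was read from its brightest probe, kept if well above background in a channel on at least 3 arrays; 31077 genes or accessions passed, with all 37 members, each well above background in both channels on 4 arrays and saturated on 0. Ratios were tested against 0 with limma (lmFit, eBayes) across all genes, with Benjamini-Hochberg adjustment and a threshold of 0.05. The pairing lies within the array. Whether livers were pooled is not stated; p-values measure the spread between these 4 arrays, whose number limits the precision.

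The fit was checked on simulated intensities with known changes. Their noise was drawn independently for each probe and array. That check therefore does not cover patterns that genes share on an array, as seen here for replicate 2. The members and lists were chosen with earlier results of these data known. Named in full were the 4 highest and 4 lowest members, the 2 of smallest p in each direction, Rpl5, Rpl11, Rps6, Rplp0, Rplp1, Rps19 and the dimmest and brightest, with the 2 of smallest p in each comparison list; genes outside this rule were named after their values had been seen. Alternatives covered background correction, normalization, filters, probe choice, variance model, separate channels, the deposited log2 table and leaving out each array. The deposited table was used with its sign turned, to follow the dye labels. The second-brightest probe was added after seeing the data.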

Additional observations from a re-analysis of the deposited data

Results flagged for a closer look

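Of 59 sets of 4 array values examined for a value far from the rest, 2 stood out; chance gives about 1 in 20. Rpl10a was at -0.0034 on replicate 3, with the other arrays at 0.18 to 0.21. The difference between large and small subunit medians was 0.10 on replicate 1, with the other arrays at -0.0064 to 0.0034.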

How the results depend on the processing

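No member passed without background correction, with processed signals, scaled arrays, the running median taken off, other filters, other probe choices, a trended robust variance or the deposited log2 table. Members passing numbered 16 without loess and 1 (Rps19) with the array as a random block; with an array left out there were 0 to 5, the 5 (Rps19, Rps2, Rplp0, Rps6 and Rplp1) without replicate 2. With the channels fitted as independent groups (no replicate block), 0 passed. The median of the members was -0.16 without loess, and -0.0028 to 0.065 with an array left out. Large minus small was -0.055 with Agilent's processed signals, 0.0046 with the running median taken off, and 0.019 to 0.092 with an array left out. Members above 0 numbered 21 of 37, but 2 without loess and 31 with processed signals. Among the 12 genes named by rule, signs turned for Rps16, Rplp0, Rps2 and Rpl11 with processed signals (0.026, 0.036, 0.092 and 0.104); for Rps24, Rpl10a, Rps27 and Rpl14 without loess (-0.036, -0.012, -0.064 and -0.018); for Rps16, Rplp0, Rplp1, Rps2 and Rpl11 with the running median taken off (0.073, 0.088, 0.16, 0.096 and 0.074); and for Rpl11 with arrays scaled (0.012) and without replicate 1 (with an array left out it was at -0.046 to 0.030). The cause was not tested.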
